A study of Mus musculus with 6 samples.

Results

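The genes described here are the 9 mouse genes at the centre of antigen presentation by MHC class II: H2-Aa, H2-Ab1 and H2-Eb1, H2-DMa and H2-DMb1, H2-Oa and H2-Ob, Cd74 and Ciita. They were taken by gene symbol from the 56980 genes listed in the count tables of a single-nucleus RNA sequencing (snRNA-seq) study of white adipose tissue in ageing mice, and all 9 symbols were found once. Their raw UMI counts, each UMI standing for 1 captured RNA molecule, were followed across B cell, dendritic cell, macrophage, T cell and non-immune nuclei and across the 3 groups of the study. The genes were measured as nuclear RNA, so the values say nothing of protein at the cell surface.

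The 6 libraries came from female C57BL/6J mice and fall into 3 groups of 2 libraries. Subcutaneous fat from the groin (inguinal, SAT) was taken at 2 and at 24 months, and visceral fat around the gonads (VAT) at 24 months, where the labels give 24 months and the design text gives an older age. No group carried a transgene or a treatment according to the labels, and VAT at 2 months was not analysed. The depots of an age came from the same few mice by the study's methods. The labels do not say which libraries share a mouse, so the p-values measure only the spread between these libraries, which may be technical in part, and an exact permutation test with 2 libraries against 2 could not go below 0.33.

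MHC class II molecules are heterodimers that show peptides from proteins taken up by the cell to CD4 T cells. H2-Aa and H2-Ab1 encode the alpha and beta chains of I-A, and H2-Eb1 encodes the beta chain of I-E. The invariant chain encoded by Cd74 guides new class II molecules to the endosome and fills their groove until H2-DM, the product of H2-DMa and H2-DMb1, exchanges its remnant for peptide. H2-DO, the product of H2-Oa and H2-Ob, inhibits H2-DM and is best known from B cells and some dendritic cells. Ciita encodes the transactivator that binds no DNA itself but acts through factors held on the X and Y boxes of class II promoters. Dendritic cells that have matured are known to shut down new class II synthesis while they keep loaded class II at the surface, and in fat tissue macrophages, dendritic cells and B cells are the usual presenting cells.

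Of the 9 genes, 7 lie in the class II region of chromosome 17 (GRCm39, GENCODE release M39, protein-coding genes with exons and introns counted as listed). From the low end these are H2-Oa at chr17:34311314-34314328, H2-DMa at chr17:34338515-34358958, H2-DMb1 at chr17:34372046-34379204, H2-Ob at chr17:34457836-34473388, H2-Ab1 at chr17:34476663-34488393, H2-Aa at chr17:34493404-34506798 and H2-Eb1 at chr17:34504236-34535648. H2-Aa is on the minus strand and the other 6 are on the plus strand. H2-Aa and H2-Eb1 overlap by 2563 bases on opposite strands, and H2-DMa overlaps Brd2 by 3231 bases. Whether the counting used strand is not given in the sources used here.

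The sequences below show what the data bear on, namely promoters of genes for which Ciita is the known regulator and whose levels are compared over classes of nuclei. RefSeq promoter windows (GRCm38.p6, 250 bases before to 50 after the start) were matched for 6 of the 9 genes, and for H2-Ab1, Cd74 and Ciita no window was matched. The letters searched on both strands were the Y box core GATTGG and the X1 box core ACNGATG, which do not overlap in the stretches shown. Each line below is on the strand of its gene, with capitals for these cores.
H2-Aa, chr17:34287859-34287912, minus strand: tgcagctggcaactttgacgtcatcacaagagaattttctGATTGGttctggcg
H2-Eb1, chr17:34305767-34305820, plus strand: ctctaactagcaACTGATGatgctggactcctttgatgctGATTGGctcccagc
H2-DMb1, chr17:34153089-34153142, plus strand: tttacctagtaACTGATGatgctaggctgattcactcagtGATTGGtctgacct
H2-Ob, chr17:34238807-34238860, plus strand: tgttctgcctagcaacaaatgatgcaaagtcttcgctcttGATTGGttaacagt
H2-Oa, chr17:34092295-34092348, plus strand: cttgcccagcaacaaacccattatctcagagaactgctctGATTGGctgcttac

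The Y core stood in all 6 matched genes and in 16.1% of all 32851 promoter windows. It began 44 bases before the start in H2-Oa, 49 in H2-Aa, 58 in H2-Ob, 60 in H2-Eb1 and 62 in H2-DMb1, whereas in H2-DMa it began 199 bases before the start of the later of 2 windows. The X1 core stood in H2-Oa, H2-DMb1, H2-Aa and H2-Eb1, against 9.85% of all windows. It began 88 bases before the start in H2-Eb1, 91 in H2-DMb1 and 137 in H2-Oa. In H2-Aa it lay on the opposite strand, 232 bases before the start. The H2-Oa and H2-Aa matches lie outside the stretches shown. The X1 core followed by the Y core on the same strand, with 10 to 30 bases between them, stood in H2-DMb1 and H2-Eb1 and in 20 windows of all (0.0609%), among them those of the relatives H2-DMb2 and H2-Eb2. These matches describe letters in the window and not bound sites. Outside the class II region, Cd74 lies on chromosome 18 from 60936899 to 60945731 and Ciita on chromosome 16 from 10297923 to 10347694 (GRCm39), both on the plus strand, and Ciita overlaps Dexi by 29935 bases.

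Of 27074 nuclei kept, 10594 were immune and 13432 belonged to named non-immune classes, and names given here stand for B cell-like, macrophage-like and so on, as judged from marker genes and with the class II genes left out of the clustering and naming. The libraries held 2490 to 5776 kept nuclei with medians of 1380 to 1878 UMIs, and at most 0.482% of the barcodes of a library occurred in another. Over 2-fold enrichment was seen for 8 of 9 B markers, 8 of 8 mature dendritic, 10 of 10 conventional dendritic, 14 of 14 macrophage and 9 of 9 T markers. Ebf1, the B marker that was not enriched, is also transcribed in adipocyte nuclei. In smooth muscle or pericyte nuclei 3 of 7 markers were enriched, Myh11, Acta2 and Tagln. Rgs5, Notch3, Pdgfrb and Cspg4 were lower there than in other nuclei, so the name rests on those 3 alone. Libraries differed in more than their group. Levels are given in CPM, the UMIs of a gene scaled to the same total in each library and class. The summed level of lymph node stroma markers was 668 and 615 CPM in SAT at 2 months, 205 and 66.0 in SAT at 24 months and 61.0 and 157 in VAT, and the ovary markers reached 2553 in VAT replicate 2 against 20.7 to 38.7 elsewhere.

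B cell nuclei numbered 622 and 736 in SAT at 2 months, 102 and 69 in SAT at 24 months and 11 and 202 in VAT. Mature dendritic nuclei, which hold Fscn1 and Ccr7, numbered 190 and 479, then 196 and 187, then 1 and 39. Conventional dendritic nuclei, which hold Flt3, Wdfy4 and Clec9a, numbered 88 and 153, then 36 and 56, then 25 and 105. Macrophage nuclei numbered 154 and 225, then 58 and 224, then 207 and 161. A library with under 20 nuclei of a class was left out of that class, so that B, mature dendritic, T and epithelial nuclei gave no comparison between depots, and plasmacytoid dendritic and NK nuclei gave none between groups.

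On average over libraries class II RNA was highest in conventional dendritic nuclei, followed by B cells and macrophages, and stood far lower in mature dendritic nuclei. The summed level of H2-Aa, H2-Ab1, H2-Eb1 and Cd74, in CPM, was 16257 ± 2525 (SD, n = 6 libraries) in conventional dendritic nuclei, 9735 ± 3726 (n = 5) in B cells and 8842 ± 6931 (n = 6) in macrophages. It was 1903 ± 797 (n = 5) in mature dendritic nuclei, 548 ± 188 (n = 5) in T cells and 304 ± 216 (n = 6) in adipocytes. Plasmacytoid dendritic nuclei, present in number only in SAT at 2 months, held 4289 and 3122 CPM, between macrophages and mature dendritic nuclei. B cells and macrophages did not differ beyond their spread in this order, and neither did T cells, endothelial nuclei (766 ± 399, n = 6) and adipocytes. In SAT at 24 months replicate 2 the macrophage sum of 22859 CPM stood above the 19278.5 of conventional dendritic nuclei. T cells of the mouse are known to make no class II molecules of their own, and their level is given for comparison. At 1000 UMIs per nucleus, H2-Aa was found in 64.3 to 100% of conventional dendritic nuclei over libraries, 56.5 to 87.0% of B cell nuclei and 41.3 to 82.6% of macrophage nuclei. The share was 5.23 to 11.4% in T nuclei and 2.66 to 10.2% in adipocyte nuclei, and as these ranges overlap the adipocyte share is not read as expression. Without thinning, the mean shares with H2-Aa were 85.8%, 78.2%, 60.7%, 10.7% and 10.3% in the same order of classes.

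**Figure D1:**
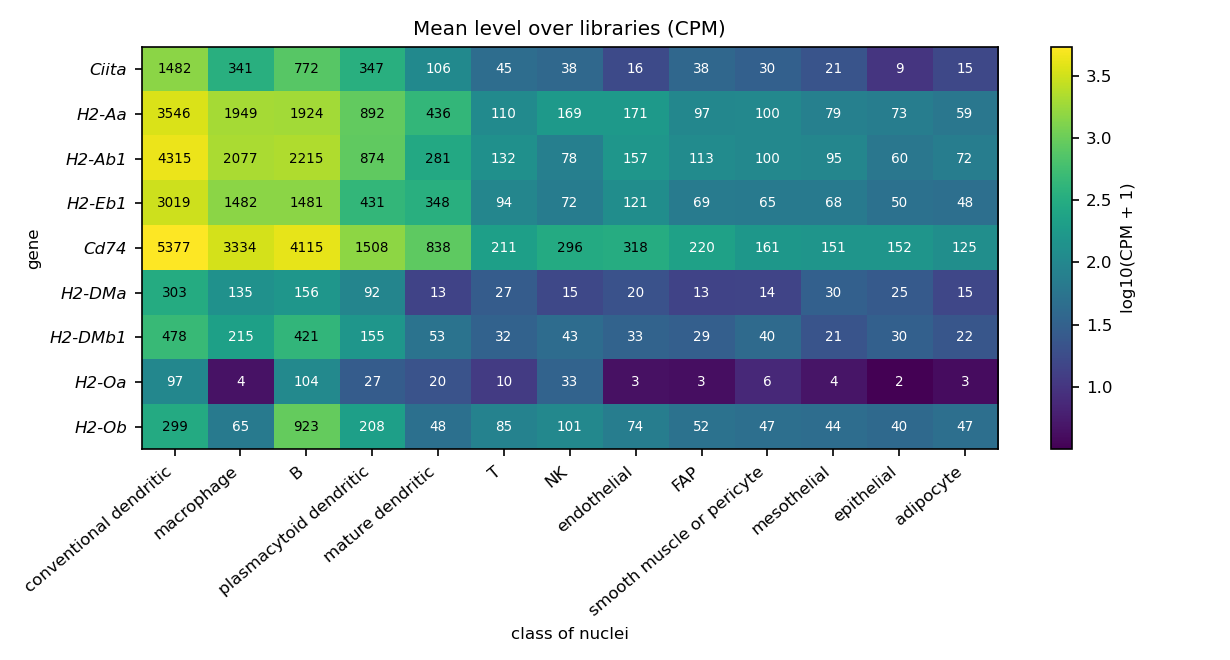
Mean level of each of the 9 genes (rows) in 13 classes of nuclei (columns), as CPM averaged over libraries, with colour on a log10 axis. Ciita and the 4 genes from H2-Aa to Cd74 peak in conventional dendritic nuclei, while H2-Ob peaks in B cells at 923.

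The core genes were read one by one. H2-Aa in conventional dendritic nuclei was 3534 and 3039 CPM in SAT at 2 months, 3649.8 and 4354 in SAT at 24 months and 3843 and 2856 in VAT. In B cells it was 1866 and 1207, then 2042 and 2919, and 1586 in the only VAT library with enough nuclei. No B cell library reached the lowest conventional dendritic value except SAT at 24 months replicate 2, which exceeded that of VAT replicate 2. In macrophages it was 1412 and 1029.5, then 1828 and 4659, then 1380.2 and 1382. SAT at 24 months replicate 2 stood apart there, above every conventional dendritic library, and the other 5 libraries ended at 1828.

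Cd74, the invariant chain, followed a similar order of classes with more overlap. It was 5303 and 4334, then 3777 and 6442, then 7575 and 4829.9 CPM in conventional dendritic nuclei. In B cells it was 3897 and 2231 in SAT at 2 months, 3219.9 and 7310.1 in SAT at 24 months and 3915 in VAT. These B cell values overlap those of conventional dendritic nuclei. In macrophages it was 2409 and 1732, then 2553 and 8662, then 2353 and 2292. The 8662 of SAT at 24 months replicate 2 stood above every conventional dendritic library. H2-Ab1 ranged from 3806 to 4893 in conventional dendritic nuclei and from 1383 to 3392 in B cells, and H2-Eb1 from 2452 to 3886 and from 924 to 2279, and neither gene overlapped between these classes.

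The transactivator Ciita separated 3 of the presenting classes in every library. It was 1376 and 1627, then 1311 and 1086, then 1659 and 1832 CPM in conventional dendritic nuclei. In B cells it was 753 and 815, then 755 and 649, and 888 in VAT, and in macrophages 163 and 204, then 406 and 340.0, then 452 and 480.3. The values of these classes did not overlap, while plasmacytoid dendritic nuclei, with 398 and 295, lay in the macrophage range. Mature dendritic nuclei held 62.3 and 49, then 51.6 and 72.6 in SAT, with 295 in the 39 nuclei of VAT replicate 2, beside 38.3 to 55.9 in T cells.

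Class contrasts were tested with edgeR's quasi-likelihood test on UMIs summed per library and class, with the library as a block and Benjamini-Hochberg adjustment over 10051 genes, and genes with an adjusted p under 0.05 were taken as called. Between mature and conventional dendritic nuclei all 9 genes were lower in the mature nuclei, against 28.8% of all genes called and 13.6% called lower. The median log2 difference of the 9 genes was -2.94, against -0.029 over all genes. Ciita differed by -3.84 ± 0.35 (SE) on the log2 scale, H2-Ab1 by -3.77, H2-DMa by -3.65, H2-DMb1 by -3.25, H2-Eb1 by -2.94, H2-Aa by -2.83 and Cd74 by -2.44. All 9 calls held when any library was left out.

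Other genes of presentation went in both directions in this contrast, in which 15.2% of all genes were called higher. Of 10 class I genes, which serve presentation to CD8 T cells, 6 were higher in mature than in conventional dendritic nuclei, none was lower, and the median log2 difference was 0.78. Of 29 tested partners of class II (processing proteases, costimulators, promoter factors and relatives), 8 were higher and 5 lower, with a median of 0.32. Marchf1, the ubiquitin ligase that sends surface class II to degradation, was lower by -3.59 ± 0.37 (adjusted p = 5.1e-09, edgeR). Cd83, which protects class II from Marchf1, was higher by 2.61 on the log2 scale.

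Mature dendritic nuclei were also lower than macrophages for 7 of the 9 genes (38% of all genes called, 20.5% called lower). H2-Ob, at -0.44 (adjusted p = 0.49, edgeR), and H2-Oa, at 1.74 (adjusted p = 0.14), did not pass. Against B cells the mature dendritic nuclei were lower for all 9 genes, with 34.9% of all genes called and 16.6% higher in B cells. There the log2 difference, B cells minus mature dendritic, ran from 1.89 for H2-Eb1 and 1.92 for H2-Aa to 3.01 for Ciita and 4.33 ± 0.46 for H2-Ob.

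H2-Eb2, a relative of H2-Eb1 with which H2-Eb1 shares 0.465% of its 31-base transcript words, ran the other way between dendritic classes. It was 91.2 and 67.1, then 49.7 and 77.1 CPM in mature dendritic nuclei of SAT, and 29.5 in VAT replicate 2. In conventional dendritic nuclei it was 39.3 and 23.5, then 14.1 and 18.7, then 0 and 0. The SAT libraries of the mature nuclei lay above the SAT libraries of the conventional dendritic nuclei, and in VAT, where the latter had no UMI, 3 counts would have given 82.9 and 15.7 CPM. The log2 difference was 2.12 ± 0.56 (adjusted p = 0.0044, edgeR), and per H2-Eb1 the mean ratio over libraries was 0.216 in mature dendritic nuclei, 0.0680 in B cells and 0.00527 in conventional dendritic nuclei. Of the other relatives, H2-Ea, whose promoter is known to be deleted in the C57BL/6 strain, gave 8 UMIs in all nuclei kept.

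Between B cells and conventional dendritic nuclei 4 of the 9 genes were called, with 17.6% of all genes called, 7.5% higher and 10.1% lower. H2-Ob was higher in B cells by 1.58 ± 0.39 (adjusted p = 0.0036, edgeR), while H2-Aa, H2-Ab1 and H2-Eb1 were lower by -0.91, -1.02 and -1.04. Ciita was -0.83 (adjusted p = 0.052). Without SAT at 2 months replicate 1 only H2-Ob was called and without SAT at 2 months replicate 2 only H2-Ob and H2-Ab1 were, and H2-Ob was past the threshold in all 14 alternatives.

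H2-Ob, which encodes a chain of H2-DO, also separated 3 of the classes in every library. In B cells it was 1253 and 1027 CPM in SAT at 2 months, 803 and 728 in SAT at 24 months and 807 in VAT. In conventional dendritic nuclei it was 320.2 and 399, then 338 and 253, then 249 and 236. In macrophages it was 138 and 144, then 38.7 and 19.2, then 32.5 and 15.6. Every B cell library lay above every conventional dendritic library, and these above every macrophage library.

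H2-Oa, the partner of H2-Ob in the dimer, was sparse, with 239 UMIs in B cells, 71 in conventional dendritic nuclei and 7 in macrophages. It was 116 and 67.4, then 193 and 87.7, and 57.2 CPM in B cells, and no UMI was found in macrophages of SAT at 24 months replicate 1 or of either VAT library, where 3 counts would have given 8.87 to 29.0 CPM. Against macrophages, B cells had more H2-Oa (log2 difference 4.48 ± 0.75, adjusted p = 2e-05, edgeR), more H2-Ob (3.89 ± 0.43) and more Ciita (1.14 ± 0.31, adjusted p = 0.0049), with 28.7% of all genes called and 11.4% higher. The other 6 genes did not pass, and over the alternatives Ciita passed in 13 of 14.

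Conventional dendritic nuclei exceeded macrophages for 6 of 9 genes (13.4% of all genes called, 4.76% called higher). These were H2-Oa at 4.23, H2-Ob at 2.31, Ciita at 1.97 ± 0.29, H2-Ab1 at 1.07, H2-Eb1 at 1.05 and H2-Aa at 0.83 (adjusted p = 0.032, edgeR). Of 14 alternatives H2-Aa passed in 7, H2-Eb1 in 11 and H2-Ab1 in 12. Without SAT at 24 months replicate 2, whose macrophages were the highest, all 9 were called, and without SAT at 2 months replicate 1 there were 3, Ciita, H2-Ob and H2-Oa. Cd74 was 0.67 (adjusted p = 0.13). Macrophages in turn exceeded the summed non-immune nuclei for 8 of 9 genes (42.6% of all genes called, 21.4% called higher), H2-Aa by 4.70 ± 0.30 and Ciita by 4.43 ± 0.33, whereas H2-Ob differed by 1.03 ± 0.40 (adjusted p = 0.036) and passed in only 6 of 14 alternatives.

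**Figure D2:**
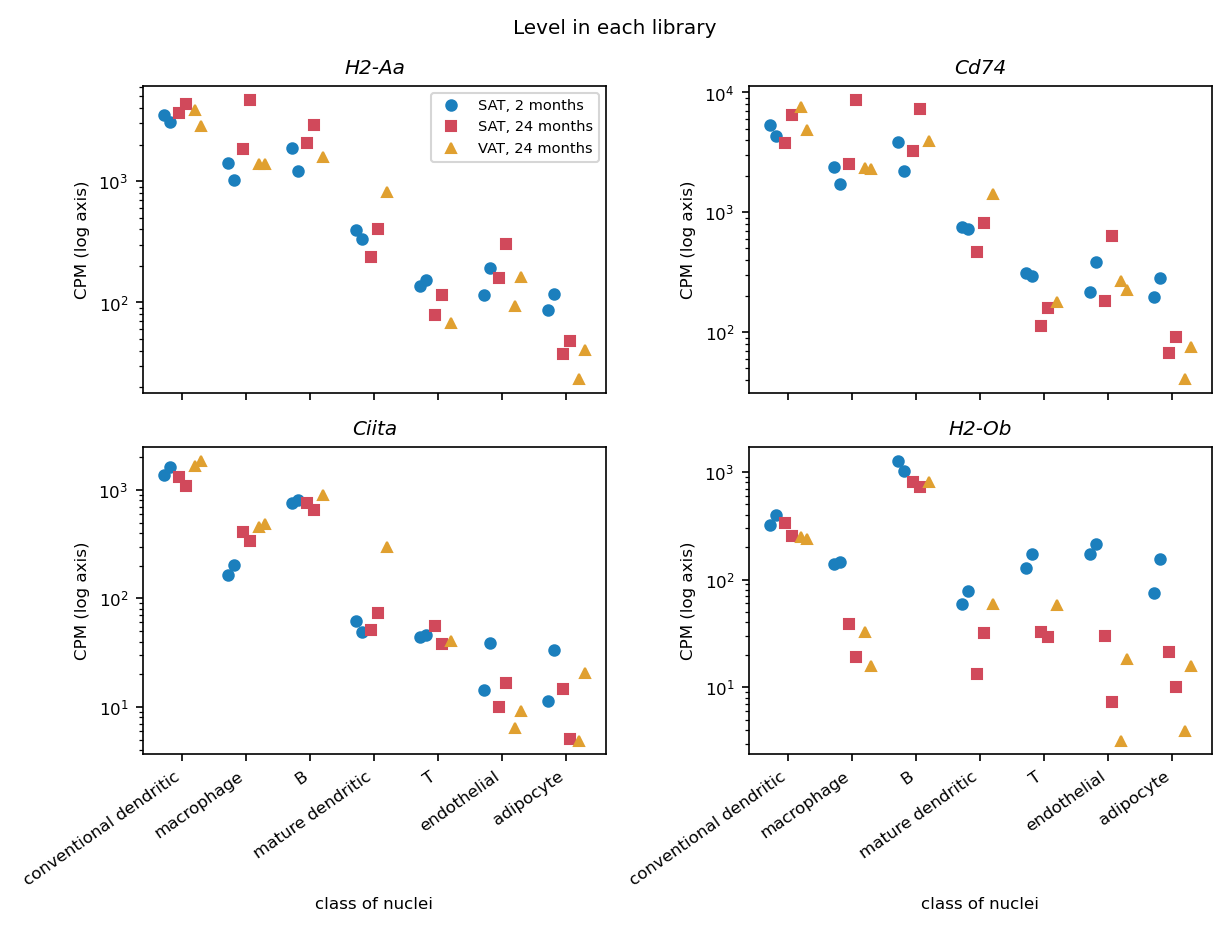
Level of H2-Aa, Cd74, Ciita and H2-Ob in each library (CPM, log axis) for 7 classes of nuclei, 1 point per library and coloured by group. Ciita keeps conventional dendritic nuclei, B cells and macrophages apart in every library, and H2-Ob is lower at 24 than at 2 months in each SAT library of macrophage, mature dendritic, T, endothelial and adipocyte nuclei.

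H2-DM showed smaller steps. H2-DMa was 185 and 137, then 451 and 337, then 470.0 and 236 CPM in conventional dendritic nuclei, and 160.4 and 77.4, then 193 and 140.2, and 211 in B cells. H2-DMb1 was 528 and 618, then 606 and 328, then 276 and 509 in conventional dendritic nuclei, and 571 and 503, then 393 and 175, and 460.4 in B cells. Both genes overlapped between the classes, and neither was called between B cells and conventional dendritic nuclei. H2-DMb1 shares 31.4% of its 31-base transcript words with H2-DMb2, so how reads were split between the pair is uncertain. H2-DMb2 was 369 to 536 in B cells and 46.8 to 219 in conventional dendritic nuclei, and it was called higher in B cells (log2 difference 1.51 ± 0.41, adjusted p = 0.0084, edgeR).

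Ratios of genes within a library were taken where the second gene had at least 10 UMIs. Per H2-Aa UMI the mean H2-Ob ratio was 0.535 in B cells, with libraries from 0.249 to 0.851. It was 0.0867 in conventional dendritic nuclei (0.0581 to 0.131), 0.119 in mature dendritic nuclei (0.056 to 0.234) and 0.0497 in macrophages (0.00411 to 0.140), and these 3 classes overlap. It ran from 0.256 to 1.13 in T cells and 0.167 to 1.32 in adipocytes, which overlap B cells widely. Cd74 per H2-Ab1 was 2.97 in mature dendritic nuclei (2.58 to 3.34), above every library of conventional dendritic nuclei, macrophages and B cells, whose highest ratio was 2.16. H2-Aa per H2-Ab1 was likewise raised there, at 1.52 (1.27 to 1.90), against at most 1.04 in those classes. The ratio to H2-Ab1 thus does not set Cd74 apart from H2-Aa.

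Within classes, subclusters differed in class II RNA. These subclusters were defined on the same nuclei, so their levels are a description. Values are given for libraries with at least 20 nuclei of a subcluster. Among macrophages the summed level of H2-Aa, H2-Ab1, H2-Eb1 and Cd74 in a subcluster led by Retnla and Saa3 was 13729 CPM in SAT at 2 months replicate 2, 32452 in SAT at 24 months replicate 2 and 8105 in VAT replicate 1. In the subcluster led by Mrc1 and F13a1 it was 5888 and 4863 in SAT at 2 months, 7967 and 24043 in SAT at 24 months and 5741 and 6568 in VAT. In the subcluster led by Spp1 and Gpnmb, genes of lipid-handling macrophages, it was 3119 and 1503 in SAT at 2 months, 12069 in SAT at 24 months replicate 2 and 5051 and 4977 in VAT. In each of the 3 libraries with all 3 subclusters the Retnla and Saa3 subcluster was highest and the Spp1 subcluster lowest, and SAT at 24 months replicate 2 was the highest library in each subcluster. Ciita overlapped between the subclusters, with means over libraries of 483 ± 142 (SD, n = 3), 280 ± 175 (n = 6) and 335 ± 162 (n = 5) in the same order.

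The 2 conventional dendritic subclusters overlapped in H2-Aa, with 3511 ± 489 CPM (n = 5 libraries) in that led by Fgr and Cd300a and 3608 ± 1453 (n = 4) in that led by Wdfy4 and Clec9a. B cells led by Bank1 and Cd22 held 2104 ± 602 (n = 5), and those led by Iglc2 and Ighg2b held 1001 ± 222 (n = 3). Mature dendritic nuclei led by Epsti1 and Fscn1 held 479 ± 209 (n = 5) and those led by Sgcz and H2-M2 held 167 ± 73.8 (n = 4). An unnamed immune cluster led by Ighm and Mki67 held 1151 ± 57.4 (n = 4), and another led by Retnla and F13a1 together with Acacb held 657 ± 381 (n = 5).

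**Figure D3:**
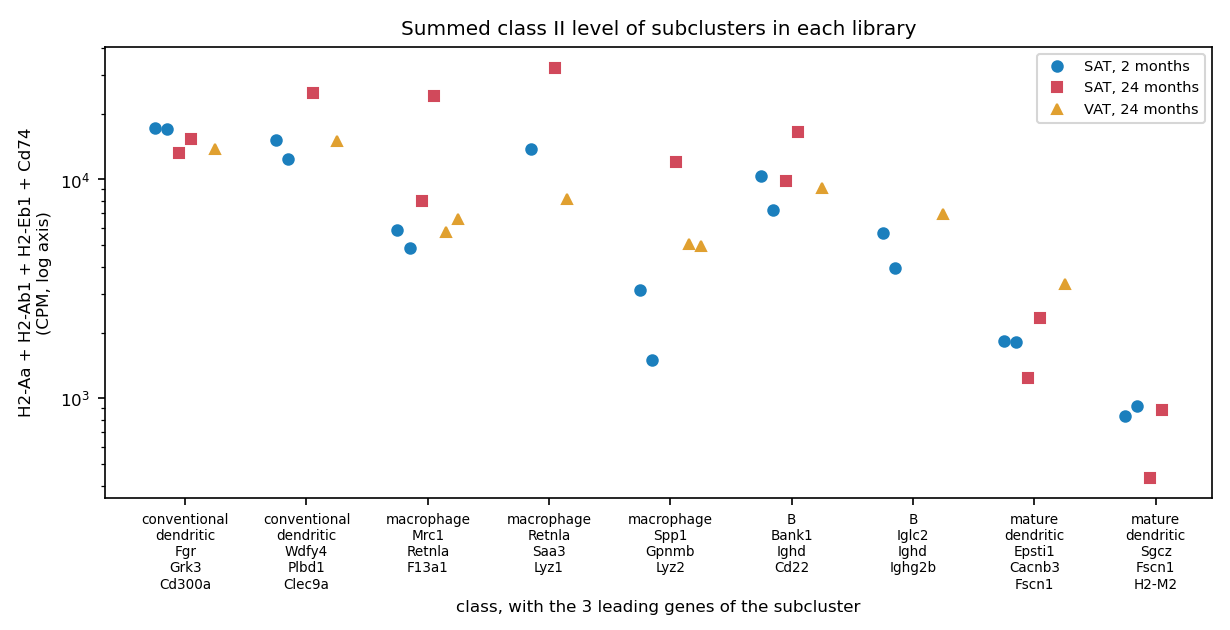
Summed level of H2-Aa, H2-Ab1, H2-Eb1 and Cd74 (CPM, log axis) in subclusters of the presenting classes, 1 point per library with at least 20 nuclei, with the 3 leading genes of each subcluster below the axis. SAT at 24 months replicate 2 (a red square) is highest in each macrophage subcluster, at 24043 in that led by Mrc1.

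The classes that held the class II RNA differed between libraries. B cells held 42.3 and 29.0% of the UMIs of the 4 core genes in SAT at 2 months, 28.1 and 9.06% in SAT at 24 months and 5.69 and 25.5% in VAT, where they made up 0.248 and 3.98% of nuclei. Macrophages held 8.83 and 9.78% in SAT at 2 months, 14.4 and 47.7% in SAT at 24 months and 43.3 and 12.9% in VAT, while they made up 2.33 to 4.76% of nuclei. Conventional dendritic nuclei held 10.3 to 23.2% with 0.564 to 2.65% of nuclei. Non-immune nuclei held 7.67 to 28.7% with 18.0 to 87.6% of nuclei. The 2 libraries of each 24-month group lay far apart in the B cell and macrophage shares, and the groups were not compared in them.

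**Figure D4:**
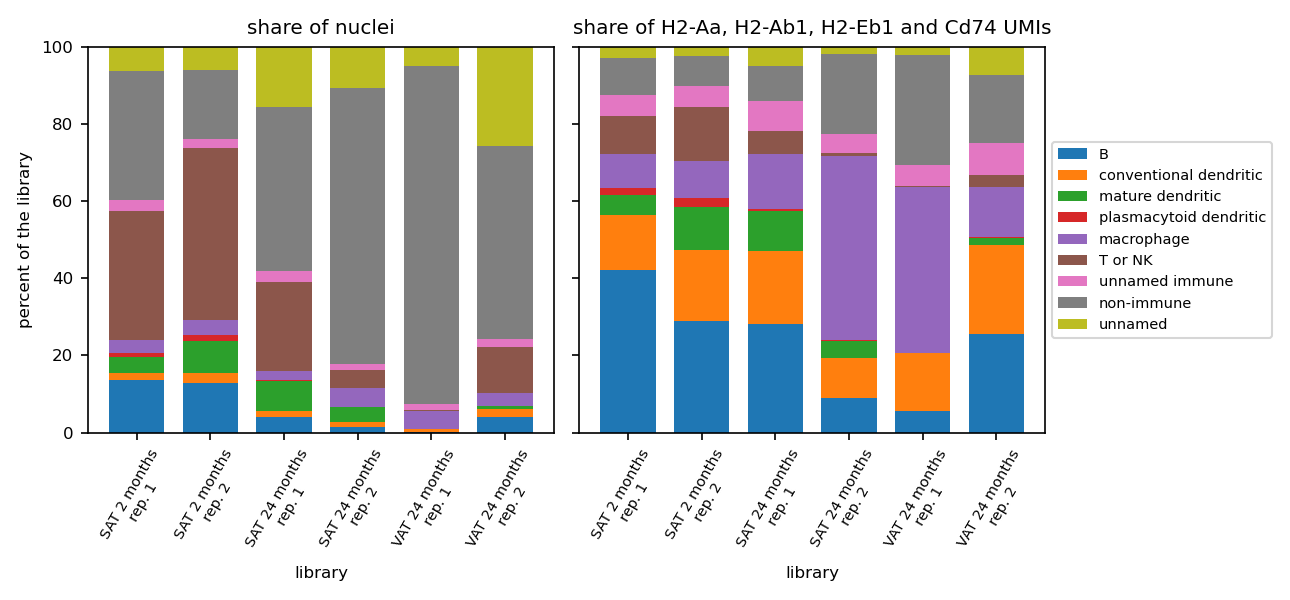
Share of nuclei (left) and of H2-Aa, H2-Ab1, H2-Eb1 and Cd74 UMIs (right) in each class, in percent of each library, with bars that sum to 100. Macrophages (purple) hold 47.7% of these UMIs in SAT at 24 months replicate 2 and 43.3% in VAT replicate 1 with under 5% of the nuclei.

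Age was compared in SAT, 24 against 2 months, within each class (edgeR, all 3 groups fitted together). Where a library is left out of a group comparison, here and below, its group keeps a single library. The spread is then estimated without that group, so calls in such fits describe only how the result depends on the library. In the sum of all nuclei no gene of the 9 was called, with 0% of all genes called. All 9 were lower in both 24-month libraries than in both 2-month libraries, as were 34.1% of all genes tested, and 2 had an unadjusted p under 0.05, as had 1794 of 21729 genes. H2-Ob was 233 and 245 CPM at 2 months and 57.4 and 22.7 at 24 months (log2 difference -2.43 ± 0.86, adjusted p = 0.60). In such sums fewer nuclei of a class and less RNA per nucleus cannot be told apart, and B cells made up 13.5 and 12.7% of nuclei at 2 months and 4.10 and 1.47% at 24 months.

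In macrophages the direction differed between genes. H2-Aa was 1412 and 1029.5 CPM at 2 months and 1828 and 4659 at 24 months, and H2-Ab1, H2-Eb1, Cd74 and Ciita likewise had both 24-month libraries above both at 2 months, as had 19.5% of all genes tested. The log2 differences were 1.51 ± 0.50 for H2-Aa, 1.68 ± 0.52 for H2-Ab1, 1.74 ± 0.54 for H2-Eb1, 1.53 ± 0.56 for Cd74 and 1.09 ± 0.37 for Ciita. Cd74 was 2409 and 1732 at 2 months and 2553 and 8662 at 24 months. Except for Ciita, the size of these differences rests largely on SAT at 24 months replicate 2. H2-Ob was -2.41 ± 0.54, with 138 and 144 at 2 months and 38.7 and 19.2 at 24 months. T nuclei held 129 and 174, then 32.4 and 29.4, and FAP (fibro-adipogenic progenitor) nuclei 137 and 123, then 12.8 and 14.6, so that H2-Ob in macrophages is not told apart from the level in nuclei outside the presenting classes. None of the 8 genes tested passed (adjusted p from 0.13 for H2-Ob to 0.59 for H2-DMb1), although 6 had an unadjusted p under 0.05, as had 986 of 7497 genes, and 0.04% of all genes were called. DESeq2 called 2, H2-Ab1 and H2-Eb1, and edgeR without either VAT library called 3, H2-Ob lower and H2-Ab1 and H2-Eb1 higher.

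Other lists in macrophage nuclei are given beside this. The summed macrophage markers were 14525 and 10184 CPM at 2 months and 10203 and 20103 at 24 months, the conventional dendritic markers 1876 and 1472, then 1712 and 2246, and the B markers without Ebf1 682 and 686, then 861 and 505. The T markers went from 537 and 888 to 387 and 67.0. Their part in the result was not tested. The Spp1 subcluster made up 49.4 and 52.4% of macrophages at 2 months and 31.03 and 22.8% at 24 months, and the Mrc1 subcluster 40.3 and 28.9%, then 46.6 and 60.3%.

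In B cells no gene was called with age (2.51% of all genes called, none of the 9 by DESeq2), and 2 of the 9 had an unadjusted p under 0.05, as had 1315 of 8644 genes. H2-Eb1 was 1302 and 924 at 2 months and 1679 and 2279 at 24 months (log2 difference 0.92 ± 0.34, adjusted p = 0.20). H2-DMb1 went from 571 and 503 to 393 and 175 (-0.77 ± 0.36), and Ciita differed by -0.05 ± 0.29. Without SAT at 24 months replicate 1, 5 genes were called, with Cd74, H2-Ab1, H2-Aa and H2-Eb1 higher and H2-DMb1 lower, and without SAT at 24 months replicate 2 only H2-Oa was. Of 27 class II partners tested, 2 rose in B cells, the costimulator Cd80 by 3.78 ± 0.35 and Cd44 by 2.36 ± 0.30 on the log2 scale.

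Dendritic nuclei showed no called gene with age either. In conventional dendritic nuclei 0.638% of all genes were called, and H2-DMa went from 185 and 137 to 451 and 337 (log2 difference 1.37 ± 0.42, adjusted p = 0.17) while H2-Oa went from 89.9 and 90 to 42.3 and 9.36 (adjusted p = 0.41), the last 2 values resting on 3 and 1 UMIs. The median of the 9 genes was 0.17. In mature dendritic nuclei 1.1% of all genes were called, and H2-Ob went from 59.3 and 78.4 to 13.4 and 31.8 (-1.50 ± 0.42, adjusted p = 0.092). DESeq2 called none in either class, and the counts at an unadjusted p under 0.05 were 2 of 9 (456 of 4549 among all genes) and 1 of 8 (847 of 7907). Without VAT replicate 1, H2-DMa was called in conventional dendritic nuclei. In mature dendritic nuclei H2-Eb1 was called without SAT at 24 months replicate 1, and H2-Ob without replicate 2.

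In T cell nuclei H2-Ob and Cd74 fell with age, 2 of 9 genes against 10.4% of all genes called and 3.76% called lower. H2-Ob was 129 and 174 CPM at 2 months and 32.4 and 29.4 at 24 months (-2.20 ± 0.27, adjusted p = 0.00017, edgeR). Cd74 was 311 and 294, then 113 and 159 (-1.15 ± 0.21, adjusted p = 0.0031). Of the 9 genes 8 had both 24-month libraries below both at 2 months, as had 30.8% of all genes tested. Without SAT at 24 months replicate 2 the count was 7. The B markers without Ebf1 in the same nuclei went from 496 and 579 to 318 and 203 and the lymph node stroma markers from 146 and 180 to 38.0 and 47.1, and their part was not tested. T subclusters also differed by age, with one led by Cd8a and Themis at 31.4 and 33.8% of T nuclei at 2 months and 6.0 and 9.3% at 24 months, and one led by Scart1 and Il23r at 5.1 and 2.9%, then 31.2 and 31.02%.

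Adipocyte nuclei gave the most calls. Of 8 genes tested 7 fell with age in SAT, against 13.4% of all genes called and 7.05% called lower, and their median log2 difference was -1.45 against -0.0033 over all genes. H2-Ob was 75.4 and 157 CPM at 2 months and 21.4 and 10 at 24 months (-2.82 ± 0.51, adjusted p = 0.0049, edgeR). Cd74 was 196 and 283, then 66.4 and 91.2 (-1.43 ± 0.30, adjusted p = 0.011), and H2-Aa was 86.8 and 119, then 37.3 and 48.1 (-1.08 ± 0.29, adjusted p = 0.032). H2-DMb1, H2-Eb1, H2-DMa and H2-Ab1 fell by 2.06, 1.63, 1.47 and 1.11 on the log2 scale, and Ciita, at -1.08 ± 0.75, did not pass (adjusted p = 0.37). Over the alternatives H2-DMa was called in 9 of 16, H2-Aa in 10 and H2-Ab1 in 11.

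The number of calls changed with the libraries used. Without SAT at 2 months replicate 2 no gene was called in adipocytes, without SAT at 2 months replicate 1 or SAT at 24 months replicate 1 there were 4 and without SAT at 24 months replicate 2 there were 3. H2-Ob, H2-Eb1 and Cd74 were among those called in each of the last 3 settings. The share of adipocyte nuclei with an H2-Aa UMI overlapped the range of T nuclei, as given above. Adipocyte subclusters also differed in share by age, with that led by Ptchd4 at 20.4 and 18.8% of adipocytes at 2 months and 32.7 and 31.6% at 24 months, and that led by Slc1a3 and Slc7a10 at 32.1 and 31.2%, then 20.3 and 20.2%. Within the first the summed level of the 4 core genes went from 462 and 653 CPM to 143 and 179, and within the second from 535 and 685 to 211 and 351. Markers of other cells moved in the same direction in adipocyte nuclei. The T markers went from 278 and 512 to 60.8 and 38.0 CPM, the B markers without Ebf1 from 303 and 440 to 87.8 and 45.1, the mature dendritic markers from 352 and 525 to 113 and 76.8 and the lymph node stroma markers from 106 and 173 to 15.2 and 13.1. All 9 T and all 8 B markers had a UMI in each SAT library, and the macrophage markers went from 136 and 165 to 40.8 and 115. Their part in the result was not tested.

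**Figure D5:**
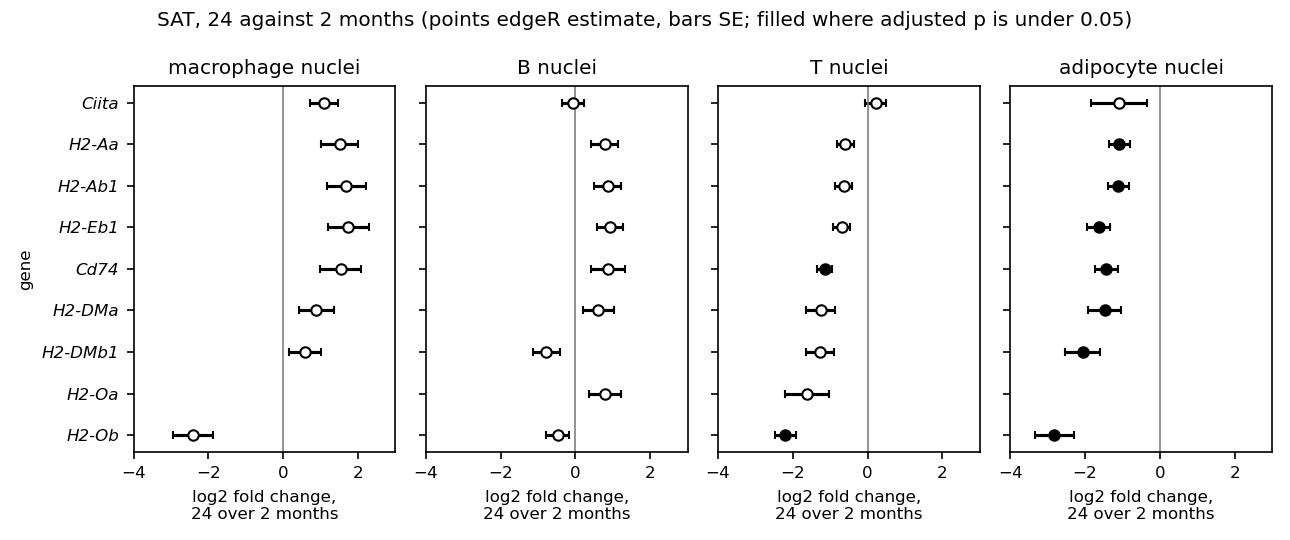
Log2 difference of each gene in SAT, 24 over 2 months, in macrophage, B, T and adipocyte nuclei (points, edgeR estimate; bars, SE; filled where the adjusted p is under 0.05, and no point where the gene was not tested). H2-Ob lies below 0 in all 4 classes, at -2.41 in macrophages and -0.47 in B cells, while H2-Aa is 1.51 in macrophages and -1.08 in adipocytes.

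Some other genes of presentation were lower with age in adipocyte nuclei as well, where 13.4% of all genes were called and 7.05% called lower. Of 28 class II partners tested 8 were lower and none higher, and of 10 class I genes 5 were lower, which are Tap1, H2-K1, Psmb9, Erap1 and Tap2, named after their values were seen, with log2 differences from -1.97 to -0.98. In T nuclei 5 of 29 partners were called, where 6.61% of all genes were called higher and 3.76% lower, Cd44 and Ifngr1 higher and Irf4, Cd86 and H2-DMb2 lower, likewise named after the fact. Epithelial nuclei of SAT had 3 of 7 genes lower (5.14% of all genes called, 2.87% called lower), H2-Ob by -2.98, Cd74 by -1.65 and H2-Ab1 by -1.53, beside B markers without Ebf1 that went from 226 and 308 to 138 and 83.7 CPM. Without SAT at 2 months replicate 1 or SAT at 24 months replicate 2 the epithelial count was 5. H2-Ab1 in epithelial nuclei passed in 12 of 13 alternatives. The partners Irf4 and H2-DMb2, named after their values were seen, were lower in these nuclei.

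In the remaining classes no gene was called with age, and DESeq2 called H2-Ob in the summed non-immune nuclei and none in immune, FAP, endothelial, mesothelial or smooth muscle or pericyte nuclei. The counts at an unadjusted p under 0.05 were 1 in immune (1225 of 14469 among all genes), 4 in non-immune (2233 of 17548) and 1 each in FAP (840 of 8145), endothelial (606 of 6402), mesothelial (431 of 5690) and smooth muscle or pericyte nuclei (332 of 5857), with 0%, 0%, 0%, 0.0625%, 0% and 0% of all genes called. In endothelial nuclei H2-Aa was 115 and 194 CPM at 2 months (8 and 10 UMIs), 158 and 304 at 24 months and 92.8 and 161 in VAT, while H2-Ob was 173 and 213, then 29.7 and 7.36, then 3.2 and 18.4. In SAT at 24 months replicate 2 endothelial H2-Aa was above the 48.1 of adipocytes and the 115 of T cells, whereas endothelial H2-Ob was below the 29.4 of T cells. With SAT at 24 months replicate 1 left out, H2-Ob was called in endothelial nuclei, and with either VAT library left out it was called in FAP, in non-immune and in smooth muscle or pericyte nuclei.

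H2-Ob libraries did not overlap between ages, and were lower at 24 months, in B, mature dendritic, macrophage, T, adipocyte and FAP nuclei. The same held in mesothelial, epithelial, endothelial and smooth muscle or pericyte nuclei, and in the all, immune and non-immune sums that hold these classes. This list was read from H2-Ob itself. In these classes 21.4 to 41.7% of all genes tested were lower without overlap. H2-Ob overlapped in conventional dendritic nuclei, with 320.2 and 399 at 2 months and 338 and 253 at 24 months. In B cells, which hold most of it per nucleus, the log2 difference was -0.47 ± 0.31, against -2.41 ± 0.54 in macrophages. In SAT the macrophage values lay close to those of FAP, T and endothelial nuclei, which ran from 123 to 213 CPM at 2 months and from 7.36 to 32.4 at 24 months. The difference between these age effects was -1.97 ± 0.52 (adjusted p = 0.038, edgeR interaction with the library as a block), and H2-Ob was the single gene of the 9 called there, with 1.89% of all genes called and 1.21% lower. It passed in 2 of 7 alternatives, and leaving out SAT at 24 months replicate 1 raised the count to 7 while leaving out any of the other 3 libraries gave 0.

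Depots were compared at 24 months, VAT against SAT, and share the SAT libraries with the age comparison. No gene of the 9 was called in any of the 10 classes that could be tested, by edgeR or by DESeq2. The share of all genes called was 0.0138% in all nuclei, 0% in immune, conventional dendritic and endothelial nuclei, 0.08% in macrophages, 0.103% in non-immune nuclei, 0.123% in adipocytes, 0.0246% in FAPs, 2.54% in smooth muscle or pericyte nuclei and 9.47% in mesothelial nuclei. At an unadjusted p under 0.05 there were 4 of the 8 genes tested in macrophages (427 of 7497 among all genes), 1 each in immune (1264 of 14469), conventional dendritic (220 of 4549) and smooth muscle or pericyte nuclei (791 of 5857) and 0 in the other 6 classes. Without VAT replicate 1, Cd74 was called in mesothelial nuclei and H2-Aa in smooth muscle or pericyte nuclei.

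In macrophages both VAT libraries were below both SAT libraries at 24 months for 4 genes, as for 17.3% of all genes tested, where 0.08% were called. H2-Eb1 was 1238 and 4091 CPM in SAT and 1019.7 and 832 in VAT (log2 difference -1.47 ± 0.54, adjusted p = 0.75, edgeR), and H2-Ab1 was 1905 and 5447, then 1336 and 1328 (-1.41 ± 0.52). Ciita went the other way, with 406 and 340.0 in SAT and 452 and 480.3 in VAT (0.40 ± 0.36, adjusted p = 0.93). SAT at 24 months replicate 2 was the highest macrophage library for H2-Eb1 and H2-Ab1 in both comparisons. In conventional dendritic nuclei H2-Oa was 42.3 and 9.36 in SAT and 249 and 99.7 in VAT (adjusted p = 0.63, edgeR), which rest on 3, 1, 9 and 19 UMIs. The other 8 genes differed by 0.50 or less on the log2 scale. The partner Cd44 was lower in VAT in mesothelial nuclei (-3.06) and was named after its value was seen.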

How the data were processed

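Nuclei of 6 libraries were profiled by microfluidic snRNA-seq, and the files deposited give UMI counts of each gene in each barcode as raw counts, made by the authors with Celescope on GRCm39 and not normalized. The Celescope version, annotation release and use of strand or introns are not given in the sources used here. The totals per library ran from 8061862 to 16226690 UMIs over 6158 to 11341 barcodes.

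A nucleus was kept if it had over 500 genes, over 1000 UMIs and a mitochondrial share under 15%. The 1000 most variable genes, without the 9 genes and H2-Ea, H2-Eb2 and H2-DMb2, gave 30 principal components that were corrected by library and clustered with Leiden at resolution 2.0, and immune nuclei again at 1.0. Python 3.11.15, scanpy 1.11.5 (Scrublet), leidenalg 0.10.2, R 4.3.3, edgeR 4.0.16 and DESeq2 1.42.0 were used, with seed 1. Classes were named from marker lists. Scrublet called 36 nuclei (0.133%), too few to have worked, so that doublets were kept and the 1770 nuclei with the highest 6% of scores were removed as an alternative added after the data were seen.

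UMIs were summed per library and class of at least 20 nuclei and tested with edgeR's quasi-likelihood test after TMM scaling and filterByExpr, with Benjamini-Hochberg adjustment over all genes tested. Levels are CPM, UMIs scaled to a fixed total per library and class. The zero-count floor of 3 counts and all shares cover counting error only. The tests were checked on simulated counts. Named were all 9 genes, their 3 relatives, partners called in a class with age or depot, Marchf1, Cd83 and the 10 other genes most like the core genes, of which 1 is not reported here. The 9 genes and the lists were chosen with earlier results of these data known. All libraries carry a single date, so no batch could be compared. Alternatives were DESeq2, library size scaling, no low-count filter, 4 libraries alone, a replicate block, each library left out, other clusterings, stricter mitochondrial share and doublet removal.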

Additional observations from a re-analysis of the deposited data

Results flagged for a closer look

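The age effects of a gene are set side by side below for pairs of classes of nuclei, as log2 differences (24 over 2 months in SAT) of the first class minus the second, and 1 of these differences was tested. For H2-Ob, macrophages minus B cells gave -1.97, which passed the test of the difference itself (adjusted p = 0.038, edgeR interaction) and passed again in 2 of 7 alternatives. H2-Ob in macrophages lay close to its level in T, FAP and endothelial nuclei, as given above.

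In the other cases every 24-month library lay above every 2-month library in the first class and below in adipocytes, and the difference was not tested. Of all genes tested 39% were lower in this way in adipocytes, and 17.3% were higher in B cells, 17.5% in conventional dendritic nuclei and 19.5% in macrophages. H2-Aa in adipocytes overlapped the share in T nuclei and was not read as expression. Macrophages minus adipocytes gave 2.58 for H2-Aa, 2.79 for H2-Ab1, 3.37 for H2-Eb1 and 2.96 for Cd74. The macrophage part of these differences rests largely on SAT at 24 months replicate 2, as given above. B cells minus adipocytes gave 1.86 for H2-Aa, 1.97 for H2-Ab1 and 2.55 for H2-Eb1. Conventional dendritic nuclei minus adipocytes gave 1.45 for H2-Aa, 1.34 for H2-Ab1 and 2.84 for H2-DMa. The single age effects in the 3 presenting classes did not pass their own test.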

How the results depend on the processing

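With a library left out, 152 counts stayed within 1.5 times and 30 did not. A count of 0 that stayed 0, as in most depot comparisons, is among those kept here and under the other alternatives. The ranges of genes called with age were 0 to 5 in B cells, 0 to 1 in conventional dendritic, mature dendritic, FAP, endothelial, smooth muscle or pericyte and non-immune nuclei, 0 to 3 in macrophages, 2 to 7 in T cells, 0 to 7 in adipocytes, 3 to 5 in epithelial nuclei and 0 to 0 in all, immune and mesothelial nuclei. Between depots they were 0 to 0, except 0 to 1 in mesothelial and in smooth muscle or pericyte nuclei. They were 1 to 5 for B cells against conventional dendritic nuclei, 2 to 4 for B cells against macrophages, 3 to 9 for conventional dendritic nuclei against macrophages, 7 to 8 for macrophages against non-immune nuclei, 9 to 9 for both contrasts of mature dendritic nuclei with B cells and conventional dendritic nuclei, 7 to 7 with macrophages and 0 to 7 for the macrophage and B cell age difference.

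Without the filter on low counts the age counts became 1 in all, mature dendritic, non-immune, FAP and endothelial nuclei, 5 in immune, 4 in macrophage, 6 in T, 4 in adipocyte and 5 in epithelial nuclei. H2-Ob was among the genes called in each. DESeq2 called 2 in macrophages and 1 in non-immune nuclei. The 4 SAT libraries alone gave 1, H2-Ob, in macrophages, non-immune nuclei and FAPs. With the class II genes among the variable genes T cells had 7, the macrophage and B cell age difference 0 and the unnamed immune clusters 2.53% of core UMIs. Under 5% mitochondrial UMIs T cells had 6, B cells against conventional dendritic nuclei 1 and conventional dendritic nuclei against macrophages 3. With the highest Scrublet scores removed epithelial nuclei had 5 and the macrophage and B cell age difference 0. At lower resolution the core level of T cells was 766 CPM. The causes were not tested, and no direction reversed. The other 269 counts, 39 levels and 17 shares under such alternatives kept within their limits. Calls of single genes held in 304 cases and were lost in 38 with a library left out, and held in 466 and were lost in 20 under the other alternatives.

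With the replicate number as a block the age count became 1 in mature dendritic nuclei (H2-Ob, -1.48, adjusted p = 0.0229, edgeR) and 5 in epithelial nuclei, and other counts stayed within 1.5 times. Same-numbered libraries correlated from -0.468 to 0.180 in their deviations from group means. With 2 libraries per group the crosswise match gives the opposite sign, so these values cannot tell which libraries share a mouse.

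Over all genes, edgeR and DESeq2 differed by over 1.5 times in the number called with age in all nuclei (0 and 292), immune (0 and 80), mature dendritic (87 and 37), conventional dendritic (29 and 18), macrophage (3 and 48), T (1294 and 808), non-immune (0 and 465), FAP (0 and 21), endothelial (4 and 30), mesothelial (0 and 4), smooth muscle or pericyte (0 and 1) and epithelial nuclei (545 and 299). Between depots they differed in all (3 and 520), immune (0 and 191), non-immune (18 and 664), adipocyte (16 and 32), FAP (2 and 18) and endothelial nuclei (0 and 5). H2-Oa, with 7 UMIs in macrophages, is limited by depth.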

Other observations

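The genes whose level over 68 sums of class and library was most like the mean of H2-Aa, H2-Ab1, H2-Eb1 and Cd74 were ranked among 9716 genes by Pearson's r of log2 values. The sums share libraries and classes, so r is a description. Ciita ranked 1 of all at 0.939. Of genes outside the 9, Themis2 followed at 0.939, Fgd2 at 0.936, Ly86 at 0.921, Wdfy4, which serves cross-presentation, at 0.915, Marchf1 at 0.913, Pld4 at 0.906, the B cell kinase gene Btk at 0.893, Unc93b1, which carries endosomal Toll-like receptors, at 0.890 and Rubcnl at 0.880. H2-DMb1 ranked 7 at 0.909 and H2-DMa ranked 22 at 0.853. H2-Ob, at 0.675, and H2-Oa, at 0.640, followed the core genes less closely.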
